A study of Mus musculus with 2 samples.

Results

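The family described here comprised the TSPY-like genes Tspyl1 to Tspyl5, the NAP1-like genes Nap1l1 to Nap1l4 and Set, which together had 21 of the 45037 probe sets on the arrays and made up 10 of 18193 named genes. Members were taken by symbol, with every probe set that carried 1 gene symbol among these names. The family itself was chosen by the signals of Tspyl3, which was one of the largest gains between these same arrays, so its difference is a description and was not tested. ANSO4E mouse neural stem cells, a line from a transgenic mouse whose background joined BDF1 sperm with C57BL/6JxSJL/JF1 oocytes, were infected with a lentiviral library of short interfering RNAs (siRNAs). Both groups carried the library. The reference control received no N-methyl-N′-nitro-N-nitrosoguanidine (MNNG), an alkylating agent that methylates DNA, and the survivors were the cells left after 500 µM MNNG, given for 15 min, and a second treatment at the same dose. The siRNA inserts of each group were amplified, labeled with biotin and hybridized to 1 Affymetrix mouse array, so no difference below has a replicate check or a p-value. Whether RNA or genomic DNA was the starting material is given differently in the methods and in the labels. A signal was taken as the abundance of inserts that match a probe set (a group of short probes against a transcript), not as the expression of the gene. All signals are log2 values as deposited, and all differences are survivors minus reference control.

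Proteins of this family share a fold, the NAP domain, by which NAP1 and SET bind histones. NAP1 carries histones H2A and H2B from the cytoplasm to the nucleus and helps to place them on DNA. SET also inhibits protein phosphatase 2A (PP2A) and shields histone tails from acetylation, and it belongs to a complex of the endoplasmic reticulum that acts in the cell death set off by granzyme A. In the brain, Nap1l2 is known as a neuronal gene, and Tspyl2 slows proliferation and binds the scaffold protein Cask. In a screen of this kind, an insert that is more abundant in the survivors points to a target whose loss may have helped cells to live, which is how the study used the comparison.

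Of the 21 probe sets of the family, 11 had the higher signal in the survivors, 8 the lower and 2 the same, with a median difference of 0.23. Over all probe sets the median was 0.00, with 44.2% higher, 36.4% lower and 19.4% equal. A difference above 1 was found at 2 of the 21, at Tspyl3 and Set, and over all probe sets at 3.75%. None of the 21 was lower by more than 1, against 3.93% of all probe sets. As no replicate was at hand, the spread of all differences served as a yardstick, and its scaled median absolute deviation was 0.45. By this measure 7 of the 21 (33.3%) lay beyond the yardstick in either direction, beside 33.7% of all probe sets. With each gene at its probe set of highest mean signal, 9 of the 10 genes were higher and Nap1l1 was lower, with a median of 0.48, whereas 43.5% of all genes were higher. These 9 included Tspyl3 at the probe set that chose the family. The median over the probe sets of each gene also gave 9 that were higher, with Nap1l1 lower, beside 46.1% of all genes higher. The count still depended on the choice of reading. The dimmest probe set of each gene gave 6 that were higher, 3 that were lower (Tspyl4, Nap1l1 and Set) and 1 that was equal, beside 42.9% of all genes higher.

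**Figure D1:**
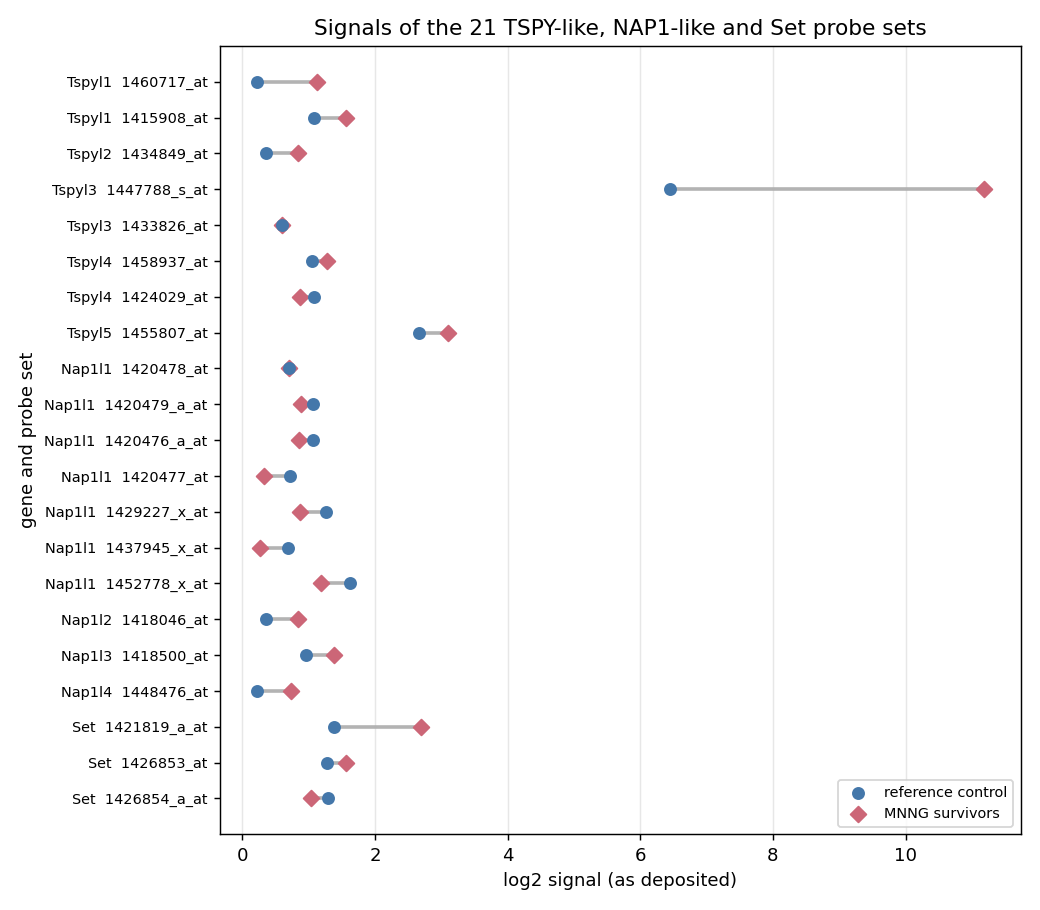
Log2 signal (horizontal axis) of each of the 21 probe sets of the family (vertical axis, gene and probe set) in the reference control (blue circles) and in the MNNG survivors (red diamonds), joined by a grey bar, with 1 array per condition. Tspyl3 1447788_s_at, at 6.45 and 11.18, lies apart from the remaining 20, which stay between 0.22 and 2.66 in the reference control and between 0.26 and 3.10 in the survivors.

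Tspyl3, which is annotated as protein-coding in RefSeq, was read by 2 probe sets that differed. At 1447788_s_at the reference control had 6.45 and the survivors had 11.18, a difference of 4.73, which on the linear scale was 87.6 against 2326, or 26.5-fold. At 1433826_at it was 0.60 on both arrays. The first was thus among the brightest probe sets on the survivor array, at rank 2, and had rank 139 on the reference array, whereas the second lay above only 36.0% of all probe sets in the survivors. By size of gain the first had rank 6, and it was 1 of 70 probe sets (0.155%) that were higher by more than 2.5. It was also 1 of the 4 (0.00888%) that in addition had a linear signal above 1000 in the survivors, the thresholds that the study names for its selection, as they apply to the deposited values. Nothing is read from these shares, since they chose the gene.

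The suffix of a probe set says how specific its probes are. In _s_at sets all probes are shared by several transcripts, in _x_at sets some probes may bind other sequences, and in _a_at sets the probes match variants of 1 gene. Tspyl3's higher reading came from the only _s_at set of the family. Such sets made up 4.64% of all probe sets and 5 of the 70 with a gain above 2.5 (7.14%). Sets ending in _s_at or _x_at made up 10.1% of all probe sets and 17 of these 70 (24.3%). Which other transcripts this set matches was not analysed here. Among 9010 genes with several probe sets, the differences within a gene spanned 0.68 at the median, and a span of at least that of Tspyl3 was found for 159 genes (1.76%). Nothing is read from this share either, since the span of Tspyl3 rests on the reading that chose the gene.

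The size of the Tspyl3 value was set beside other readings of the same arrays. The 18 hybridization controls, bacterial and phage sequences that are added to the sample in fixed amounts, were higher on the survivor array in every case, by between 0.08 and 3.86. Their differences fell along a line as the reference signal rose, with a slope of -0.60 and a residual SD of 0.07, so that the dimmest control, BioC-3, had 7.31 and 11.17, a difference of 3.86. Extended below the controls to the reference signal of Tspyl3, where no control was measured, this line gave 4.31. Tspyl3 lay 0.43 above it. The residual SD covers only the controls within their own range of reference signal, so it does not measure the error of the extended line. Probe sets as bright as Tspyl3 in the reference control were mostly lower in the survivors. Of 86 others within 0.5 of its reference signal, 82 were lower and 4 higher, and their median difference was -5.48. As Tspyl3 was chosen by its gain between these same arrays, its contrast with them follows from that choice, and nothing is read from it. What part the shift of the controls had in its difference was not tested.

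**Figure D2:**
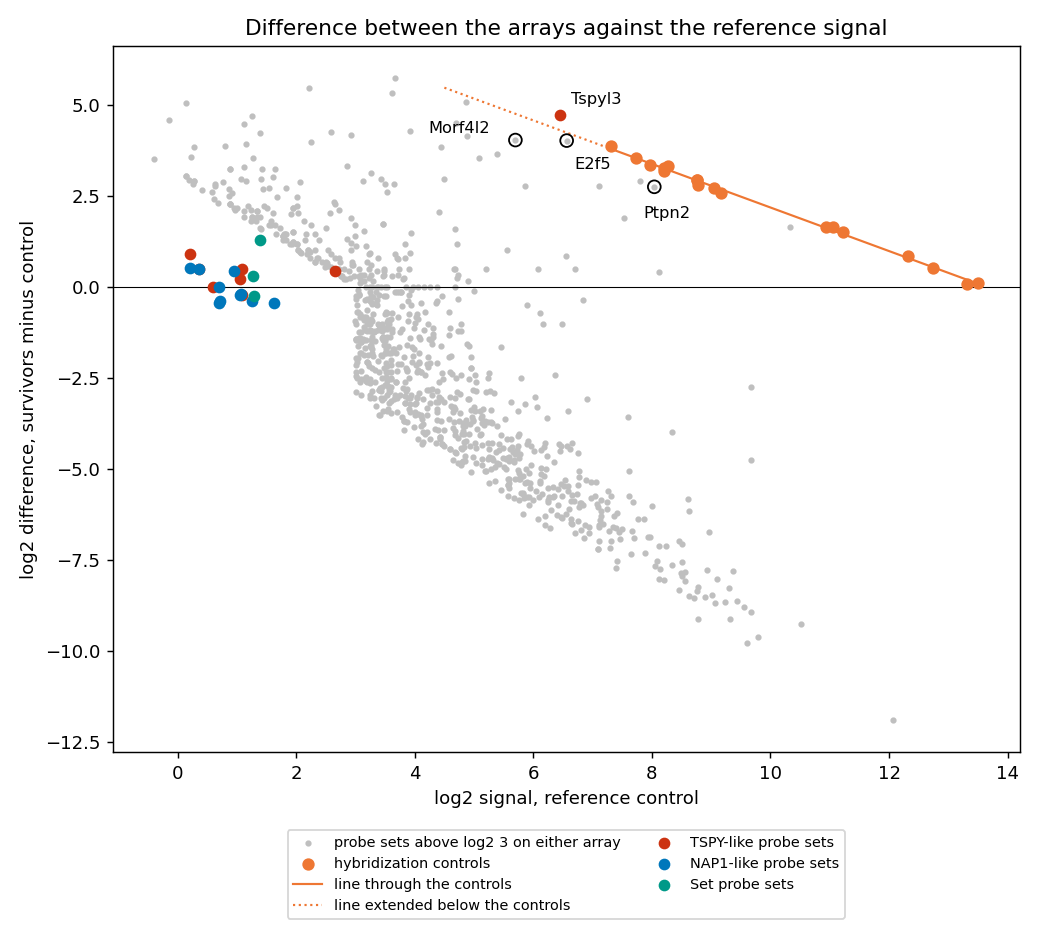
Log2 difference between survivors and reference control (vertical axis) against the log2 signal of the reference control (horizontal axis). Grey points are probe sets above 3 on either array, orange points the 18 hybridization controls with their line (dotted where extended), coloured points the family, and open circles E2f5, Morf4l2 and Ptpn2; Tspyl3 sits 0.43 above the extended line while most grey points of like brightness lie far below 0.

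The probe sets nearest to Tspyl3 over both arrays, by Euclidean distance between the pairs of log2 signals, belonged to E2f5, Morf4l2 and Ptpn2. E2f5, a transcription factor of the cell cycle, had 6.56 and 10.58 at a distance of 0.61. Morf4l2, a subunit of histone acetyltransferase complexes, had 5.70 and 9.73 at a distance of 1.63, and Ptpn2, a tyrosine phosphatase, had 8.04 and 10.79 at 1.63. E2f5 lay 0.22 below the line of the hybridization controls, Ptpn2 0.60 below it and Morf4l2 0.72 below it. The other probe sets of these genes had smaller differences, which ran from -0.43 to 0.08 for E2f5, from -0.69 to 1.89 for Morf4l2, above the mark of 1, and from -0.92 to -0.39 for Ptpn2. A distance over 2 arrays is a weak measure of likeness, and it was used to find probe sets with like signals, not like function.

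The relatives of Tspyl3 in the TSPY-like branch had 6 probe sets at low signal, of which 5 were higher in the survivors and 1 was lower, with a median difference of 0.46. Set against this median, the difference of Tspyl3 was larger by 4.27. A gap of this kind follows from the choice of the gene by its gain, so it is given as a description only. This gap was 5.30 after quantile normalization and 10.18 after loess, and it turned to -0.46 without _x_at and _s_at probe sets, where only the equal probe set of Tspyl3 was left. Tspyl1 had 0.22 and 1.13 at 1460717_at, a difference of 0.91, and 1.09 and 1.57 at 1415908_at, a difference of 0.48. Both of its probe sets were thus higher in the survivors, from an almost empty reading and from one above 80.0% of all probe sets in the reference control. Tspyl4, whose gene lies next to Tspyl1, had 1.05 and 1.28 at 1458937_at, a difference of 0.23, and 1.08 and 0.87 at 1424029_at, a difference of -0.21. These probe sets had nearly the same signal in the reference control and opposite signs. Tspyl2, the regulator of proliferation, had 0.36 and 0.85, a difference of 0.48.

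Tspyl5, which is known to bind the deubiquitinase Usp7, was the brightest relative, with 2.66 before selection and 3.10 after it at its only probe set. These signals lay above 97.8% and 99.4% of all probe sets. Its difference of 0.44 was within the yardstick of 0.45 as deposited. It was 0.39 after median centering, 1.75 after quantile normalization, 1.17 after loess and -2.32 after centering on the hybridization controls. The yardstick was computed from the deposited values only. Tspyl5 and Set are thus the members outside Tspyl3 whose reading stood out from the bulk of the array in the survivors.

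Nap1l1, a widely expressed gene of the NAP1-like branch, had 7 probe sets, of which 6 were lower in the survivors, 1 was equal and none was higher. The reference signals ran from 0.69 to 1.62 and those of the survivors from 0.26 to 1.19. The largest difference was -0.43, found at both 1437945_x_at and 1452778_x_at, and the remaining ones were -0.39 at 1420477_at and 1429227_x_at, -0.21 at 1420476_a_at, -0.19 at 1420479_a_at and 0.00 at 1420478_at. Each lay within the yardstick. The probe sets of Nap1l1 shared their sign but are not independent, because 4 were designed to the same sequence record and 3 carry the suffix _x_at. Of 97 genes with 7 probe sets, 3 had none that was higher, and Nap1l1 had the narrowest span of differences, 0.43 beside a median of 1.42.

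The other NAP1-like genes had 1 probe set each and were all higher in the survivors by about the same amount. Nap1l2, the neuronal member, had 0.36 and 0.85, a difference of 0.48. Nap1l3, a brain-expressed relative, had 0.96 and 1.39, a difference of 0.43, and Nap1l4, a widely expressed one, had 0.22 and 0.74, a difference of 0.52. None exceeded 1. The branch as a whole had 3 probe sets that were higher, 6 lower and 1 equal, with a median of -0.20, which rests on the 7 probe sets of Nap1l1.

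Set had 3 probe sets of nearly equal signal in the reference control, between 1.27 and 1.38, which parted in the survivors. At 1421819_a_at the signal was 1.38 and 2.69, a difference of 1.30, and the survivor value lay above 99% of all probe sets. At 1426853_at it was 1.27 and 1.56, a difference of 0.29. At 1426854_a_at, designed to the same sequence record as the latter, it was 1.29 and 1.03, a difference of -0.25. The sign of the Set reading thus turned with the probe set, and the span of 1.56 within the gene was reached by 1164 of the 9010 genes with several probe sets (12.9%).

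Most of these small differences were values that recur across the array. Over all 45037 probe sets there were only 907 distinct differences, counted to 5 decimals, and 8737 probe sets were exactly equal on both arrays. Tspyl2 and Nap1l2 had the same signal on both arrays, and this pair of signals was shared by 88 probe sets in all. Their difference of 0.48 was also that of Tspyl1 at 1415908_at, and it was found at 1100 probe sets within 2e-06. The equal pair of Tspyl3 at 1433826_at occurred at 619 probe sets, and the pair of Nap1l1 at 1420478_at at 186. In all, 18 of the 21 probe sets had at least 1 other with the very same signals on both arrays. Signals that no other probe set had were found for 3, Tspyl3 at 1447788_s_at, Tspyl5 and Nap1l1 at 1452778_x_at, and for 8.73% of all probe sets. The difference of Tspyl3 at 1447788_s_at occurred once, and that of Tspyl5 at 31 probe sets. Agreement between members in a difference of this size is therefore no sign that their inserts behaved alike.

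**Figure D3:**
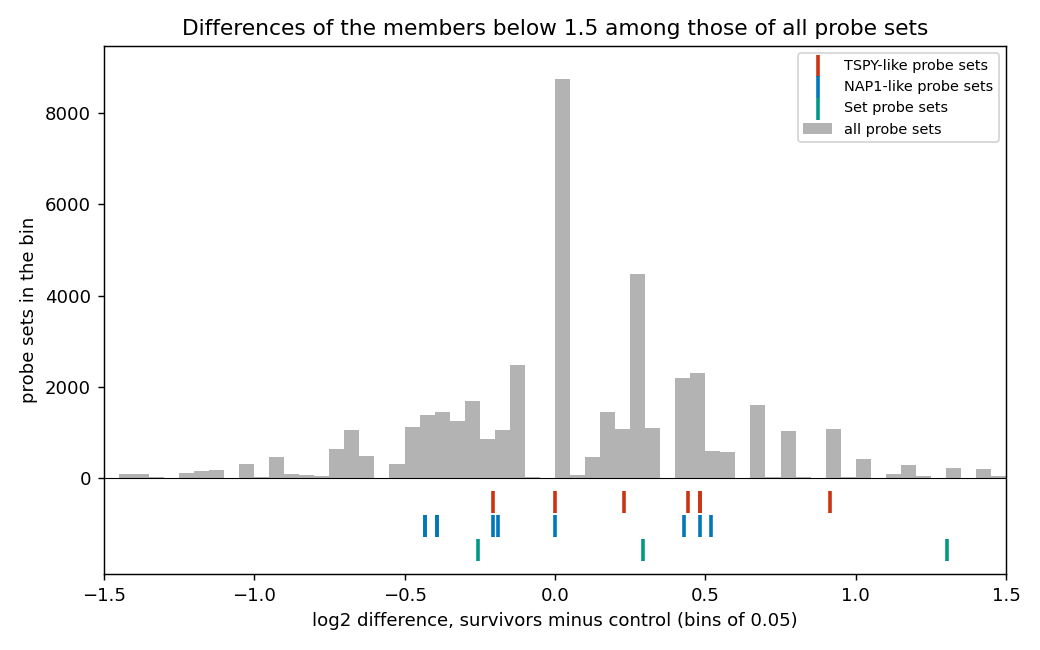
Number of probe sets (vertical axis) in bins of 0.05 of the log2 difference between survivors and reference control (horizontal axis, from -1.5 to 1.5). Ticks under the bars mark the members by branch, without Tspyl3 1447788_s_at at 4.73; most ticks stand under peaks of the grey bars, such as those at 0 and near 0.43 and 0.48.

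Genes that work beside the family were taken from 3 lists, each gene at its probe set of highest mean signal. Of 28 other histone chaperones 23 were measured, of which 11 were higher, 9 lower and 3 equal, with a median difference of 0.00, the same as that of all genes. None was higher by more than 1, a mark passed by 4.78% of all genes, and 2 were lower by more than 1, beside 5.45% of all genes. These were Ncl (nucleolin), with 3.71 and 1.60, a difference of -2.11, and Nasp, a carrier of histones H3 and H4, with 2.16 and 0.79, a difference of -1.37. Each was the lowest of 5 probe sets, which ran up to 0.42 for Ncl and 0.68 for Nasp. At the dimmest probe set of each gene, these 2 genes had 0.42 and 0.68. The count lower by more than 1 was then 1, a different gene, Chaf1b, at -1.12. With the median over probe sets the count was 0. Ubn1 and Ubn2, subunits of the HIRA complex that places the variant H3.3, had differences of 0.78 and -0.71. Nap1l5, an imprinted NAP1-like gene, had 0.55 and 0.41, a difference of -0.14.

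Of 10 genes of the SET complex and of PP2A 9 were measured, of which 3 were higher, 5 lower and 1 equal, with a median of -0.32. Here 2 were lower by more than 1, beside 5.45% of all genes, and none was higher by as much. With the median over the probe sets of each gene 1 was left, and 0 at the dimmest probe set. Ppp2r1a, the scaffold subunit of the phosphatase that SET inhibits, had 5.83 before selection and 0.14 after it, or -5.69. Its other probe sets had 5.13 and 0.41, 2.57 and 0.10, 1.24 and 1.10, and 0.74 on both arrays. A difference below -1 was thus seen at 3 of 5 probe sets, all of them _x_at sets, and the equal probe set was an _x_at set too. Near the reference signal of Tspyl3, from 5.95 to 6.95, 82 of 86 probe sets were lower in the survivors. The reference signals of these 3 Ppp2r1a sets lay below that range. The share of probe sets that were lower at their own brightness was not computed, so these differences are not shown to be particular to Ppp2r1a. The catalytic subunit Ppp2cb had 2.35 and 1.12, or -1.23, and its second reading differed by -0.14. Anp32b, a chaperone related to the SET partner Anp32a, had a difference of -0.75, and Apex1, the repair endonuclease that belongs to the SET complex, had one of -0.62. The other probe sets of Apex1 differed by -0.14 and 0.23. The partners Cask, Tbr1 and Usp7 had differences of -0.19, -0.23 and -0.43, all within the yardstick, and 38.1% of all genes were lower. Of the 4 probe sets of Cask, 2 were higher and 2 lower. Of the 7 of Usp7, 5 were lower, 1 higher and 1 equal, and the lowest, at -0.91, was beyond the yardstick.

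**Figure D4:**
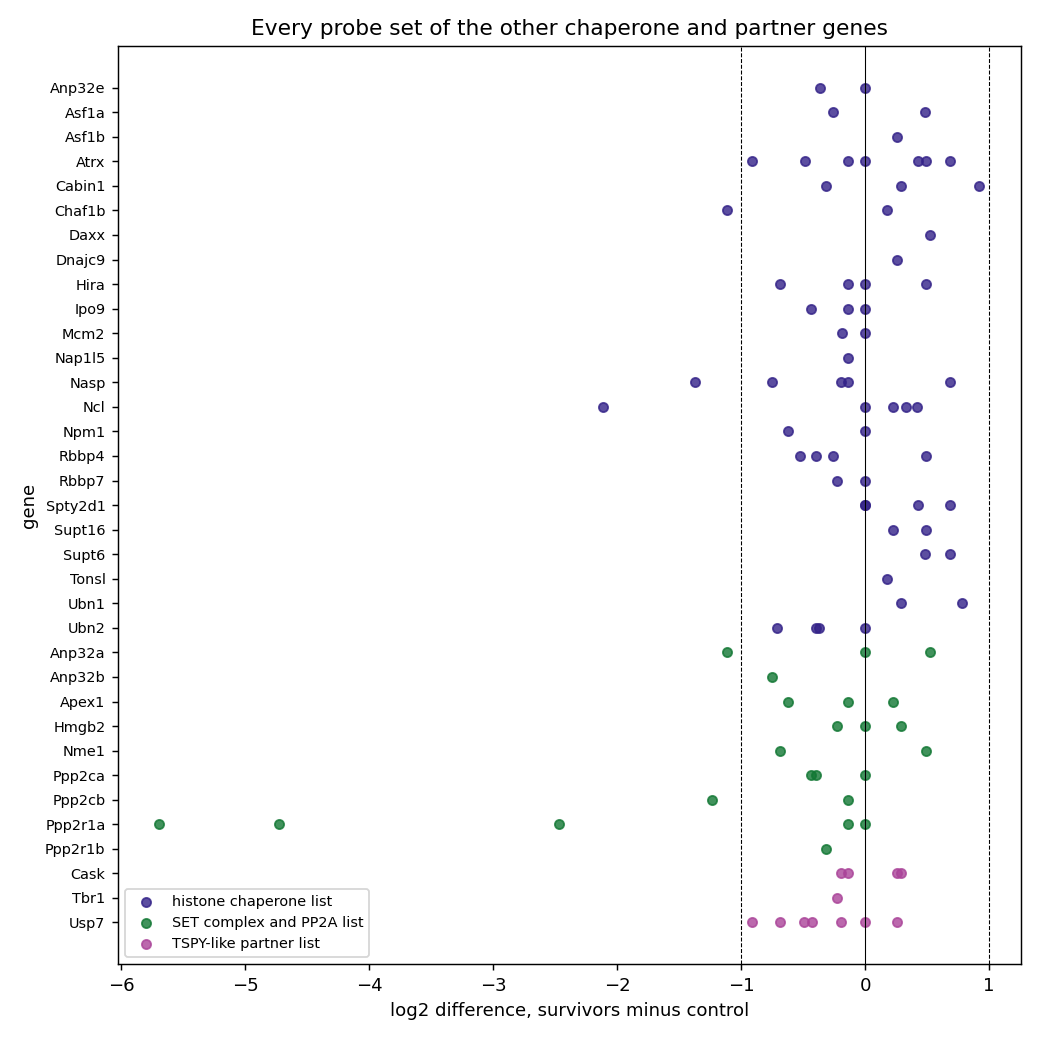
Log2 difference between survivors and reference control (horizontal axis) at every probe set of the other histone chaperones, the SET complex and PP2A genes and the TSPY-like partners (vertical axis, 1 row per gene); dashed lines mark -1 and 1. Points cluster around 0, and Ppp2r1a has 3 probe sets below -1, the lowest at -5.69.

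As deposited, 11 member probe sets were higher, and these kept their sign after median centering, quantile normalization, loess and a floor under low signals. The 2 equal probe sets were slightly lower after median centering, quantile normalization and loess, which left 10 lower. Centering on the hybridization controls lowered the difference of every probe set on the array by 2.77, so that the median of all probe sets was -2.77 and 99.9% of them were lower. The member probe sets followed this common shift, with 20 lower, and Tspyl3 at 1447788_s_at was 1.96. The arrays also differed at the bright end, where the reference control had 301 probe sets above 5 and the survivors had 58. Markers of neural stem cells, which a profile of transcripts would be read for, had signals from 0.43 to 1.26 in the reference control. Those of neurons ran from 0.62 to 1.51 and those of microglia from 0.26 to 1.32. Of the oligodendrocyte markers, Mog had 0.61, and Mbp had 7.34 at its probe set of highest mean signal. Of the 8 probe sets of Mbp, 4 were higher in the survivors and 4 lower. The cell type could not be checked on arrays that read inserts.

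**Figure D5:**
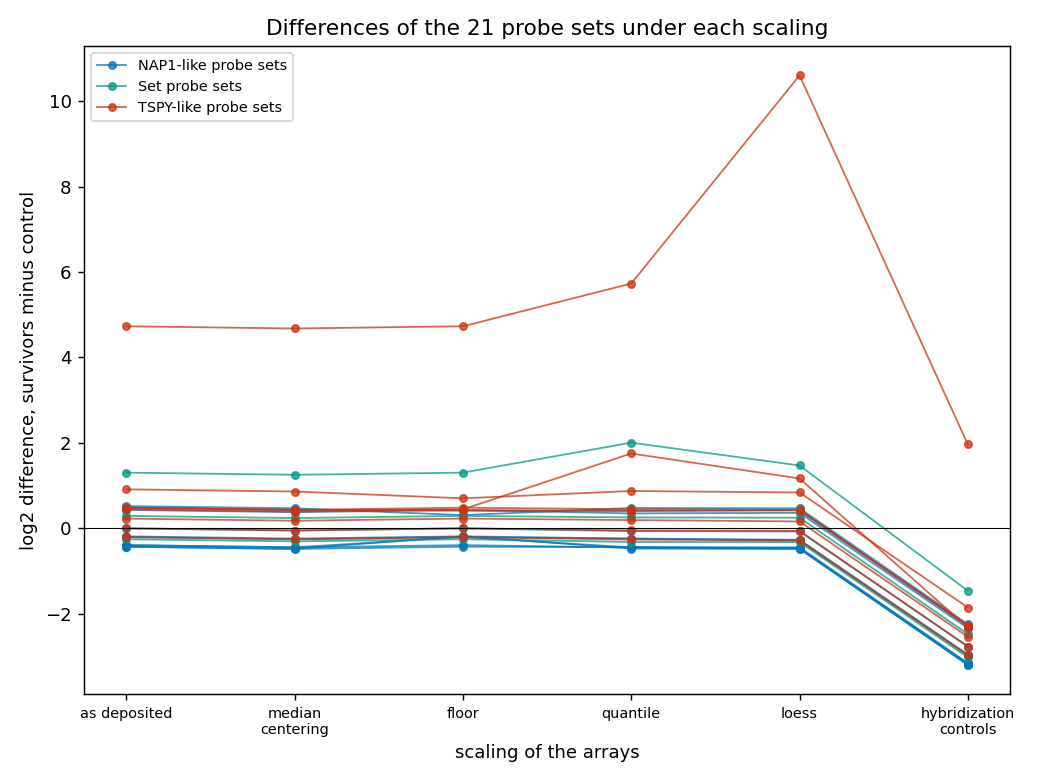
Log2 difference between survivors and reference control (vertical axis) of the 21 probe sets as deposited and under 5 scalings of the arrays (horizontal axis), with a line joining the values of each probe set. Tspyl3 1447788_s_at stays highest throughout, between 1.96 and 10.6, and centering on the hybridization controls takes the remaining 20 below 0.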

How the data were processed

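For each of 2 arrays, 1 per condition, the authors deposited a log2 signal for every probe set. RMA is named, without a version, in the submitters' processing notes. The paper names quantile normalization and the library supplier's program, but the distributions of the deposited arrays were not equal, as the 99th percentile was 4.11 for the reference control and 2.68 for the survivors. Each array was mapped to its condition through its labels. Of 45101 probe sets, 64 Affymetrix controls were set aside. Of the 45037 left, 34945 had 1 gene symbol, 932 several and 9160 none, and 34741 symbols were updated through the gene ID with RefSeq names (GRCm38.p6, used for names and neighbours only). No gene was named from a probe set with several symbols.

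Differences, tallies and medians were computed from the deposited log2 values. Without replicate arrays no test was run, and precision is limited by there being 1 array per condition. The members and gene lists were chosen with earlier results of these data known. Named were all member probe sets, the 3 probe sets nearest to Tspyl3 and up to 4 genes per list with the largest difference. Nap1l5, Chaf1b and the markers Mbp and Mog were named outside this rule. A value was counted as moved by a setting when it changed by over 0.45. The steps were tested on simulated data, which shows only that they ran as written and nothing of the precision of these arrays. For the lists, the probe set with the highest mean signal stood for a gene. Promoter sequences were not used, as they do not bear on inserts. Python 3.11.15, numpy 2.4.6, pandas 2.3.3, statsmodels 0.14.6 and matplotlib 3.10.9 were used.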

Additional observations from a re-analysis of the deposited data

How the results depend on the processing

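No paired analysis was possible because each condition had 1 array. The largest Tspyl3 difference, 4.73 as deposited, was 5.73 after quantile normalization, 10.60 after loess and 1.96 after centering on the hybridization controls. In alternatives added after the data were seen it was 0.43 when the line through these controls was subtracted, 2.37 as the median of its probe sets and 0.00 without _x_at and _s_at probe sets. Less the median of its relatives it was 5.30 after quantile normalization, 10.18 after loess and -0.46 without those probe sets, where the direction turned because only the equal probe set was left. The number of member probe sets higher by more than 1 was 2 as deposited, beside 3.75% of all probe sets. It was 1 after centering on the controls, 1 without those probe sets, 3 after quantile normalization and 3 after loess. The share of all probe sets above 1 was not computed for these settings, so nothing is read from the changes. With a mark of 2.5 the number was 1, beside 0.155% of all probe sets. With a mark of 0.5 it was 4, and 11757 of all 45037 probe sets lay beyond 0.5 in either direction. Centering on the controls moved all probe sets alike and left 99.5% of them lower by more than 1. It gave 20 member probe sets lower by more than 1 and a member median of -2.54. The direction turned at 10 member probe sets, among them Set 1421819_a_at with a value of -1.46. List medians were -2.77 for histone chaperones, -3.08 for the SET complex and PP2A and -3.00 for the partners. Under median centering, quantile normalization, loess and the floor, the other member differences moved by less than 0.45, apart from Tspyl5 and Set after quantile normalization (1.75 and 2.01) and Tspyl5 after loess (1.17). With 1 array per condition, differences near 0.45 cannot be told from the spread of the array.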
